A study of Schizosaccharomyces pombe with 6 samples.

Results

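The small nucleolar RNA (snoRNA) and small nuclear RNA (snRNA) genes of fission yeast were examined for the recombination protein Rad52, measured by chromatin immunoprecipitation on 2-colour tiling arrays. Of 72 snoRNA and snRNA records that RefSeq annotates on the nuclear chromosomes, 63 were measured (57 snoRNA and 6 snRNA), among 10420 gene windows of all gene types. The other 9 lie in the right-hand part of chromosome I, where array and reference positions do not coincide, and were not used here. A window was the gene with 500 bp on each side, and its value is the mean over its probes of the log2 ratio of immunoprecipitated to input DNA, set so that the median probe of each array is 0. The rule for members used annotation and position and no ratios, but it was set with earlier results of these data known.

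Rad52 ratios came from cdc25-22 rad3∆ cells, called rad3-deleted here (3 arrays), and from cdc25-22 cells (3 arrays). Both strains carried cdc25-22, a temperature-sensitive allele of the phosphatase that drives entry into mitosis, so the comparison holds it constant, and the rad3-deleted strain in addition lacked rad3, which encodes the checkpoint kinase related to human ATR. Per the labels, both were held at 36.5 °C for 4 h, released at 25 °C and given 6 mM hydroxyurea, an inhibitor of ribonucleotide reductase that slows DNA replication. Every array was a Rad52 immunoprecipitate and none was a mock or untagged control, so a ratio above the median cannot be told apart from unspecific enrichment of the same DNA. The labels do not say whether the replicates were separate cultures, so p-values measure the spread between these arrays. The immunoprecipitate was in the same dye on all arrays.

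The deletion was checked on the arrays. Of 33 probes in rad3 (SPBC216.05, II:904184-913629), 9, 10 and 9 were not well above background in either channel on the arrays taken as rad3-deleted. On the arrays taken as cdc25-22 these counts were 0, 0 and 0. The other rad3 probes were well above background in at least 1 channel on the rad3-deleted arrays. Median input over the 33 probes was -0.27, -0.70 and -0.75 there, against -0.09, -0.26 and -0.29 on cdc25-22 arrays (log2, array median at 0). For replicates 1 and 2 of each strain these 4 arrays are listed under the other strain in the deposit. They were exchanged because the rad3 probes and the deposited value table, of which 5 of 6 columns equal a scanner file, both place them so. Replicate 3 of each strain was used as listed, so the difference between the arrays of slide 3 is the same in either placement and is given beside the differences of the main members below. The file of cdc25-22 replicate 3 equals no column of the value table and correlated with its own column at 0.40 over probes. That column correlated best, at 0.51, with the file of rad3-deleted replicate 3. With the arrays taken as rad3-deleted replicates 1 and 2 it correlated at 0.35 and 0.36, and with those taken as cdc25-22 replicates 1 and 2 at 0.22 and 0.14. The cdc25-22 replicate 3 file had 2137 outlier-flagged probes, against 6 to 523 on the other arrays. Each difference on slide 3 rests on the cdc25-22 replicate 3 array and 1 rad3-deleted array. Per the file headers, both arrays of slide 3 were extracted with a protocol named ChIP, and those of slides 1 and 2 with a protocol named CGH. Slide 3 thus differs from the other slides in protocol as well. Median immunoprecipitate signals were 580 to 1211 over backgrounds of 38 to 49. Array values over all windows correlated at 0.79 to 0.88 among rad3-deleted arrays and at 0.37 to 0.57 among cdc25-22 arrays. In the input channel 84.9% of probes were well above background on rad3-deleted replicate 2, against 96.5% to 99.8% on the other arrays. Of the 63 members, 34 held a probe that was not well above background in at least 1 channel on at least 1 array.

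snoRNAs guide chemical modification and cleavage of ribosomal RNA in the nucleolus. Box C/D snoRNAs guide methylation of the ribose and box H/ACA snoRNAs guide the conversion of uridine to pseudouridine, each with its own set of proteins. snRNAs are the RNA core of the spliceosome, which removes introns. In yeasts most of these genes are short, strongly transcribed units, some lie in introns or in clusters cut from 1 precursor, and most snRNA genes and independent snoRNA genes are read by RNA polymerase II, while U6 is read by RNA polymerase III. Rad52 binds single-stranded DNA and acts in homologous recombination, so its chromatin signal is used as a mark of DNA breaks and of forks under repair.

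The sequences below are those of the genes on which the results turn, given 5′ to 3′ on the strand of the gene from RefSeq ASM294v3, with the sequence boxes found by a letter search in capitals. Box C was searched as TGATGA within 30 bases of the 5′ end, box D as CTGA within 30 bases of the 3′ end, and the ACA box as ACANNN at the 3′ end, all on the sense strand. snoU14 (II:1308634-1308745, plus strand) had the highest ratio of all windows in cdc25-22, sno52 (I:339548-339642, minus strand) followed it among the members, and snoR68 (II:3944573-3944645, plus strand) was higher in the rad3-deleted strain; all 3 hold both C and D letters. sno12 (III:583416-583605, plus strand) was high in both strains and ends in ACA and 3 bases.
snoU14: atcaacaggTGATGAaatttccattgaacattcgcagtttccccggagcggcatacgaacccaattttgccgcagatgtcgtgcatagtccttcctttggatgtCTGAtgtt
sno52: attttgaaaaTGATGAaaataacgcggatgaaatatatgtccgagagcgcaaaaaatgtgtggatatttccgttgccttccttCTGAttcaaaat
snoR68: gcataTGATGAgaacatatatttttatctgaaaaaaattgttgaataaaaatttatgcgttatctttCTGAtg
sno12: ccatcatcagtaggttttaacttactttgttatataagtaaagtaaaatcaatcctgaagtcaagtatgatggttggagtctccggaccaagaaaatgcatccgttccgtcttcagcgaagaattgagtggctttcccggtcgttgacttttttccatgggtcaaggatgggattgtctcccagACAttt

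C and D letters were found together in 13 of the 63 members, the ACA letters in 11 and neither in 39. No difference was read between these classes. Members with both C and D letters had a median ratio of 0.43 in rad3-deleted cells and 0.21 in cdc25-22 cells, those with ACA 0.26 in rad3-deleted cells and 0.25 in cdc25-22 cells, and the rest 0.24 in rad3-deleted cells and 0.27 in cdc25-22 cells. Some true guides lack these exact letters, so the last class is not a class of other RNAs.

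Rad52 ratios of snoRNA and snRNA genes were above the array median in both strains, and the 2 strains shared a set of high members. In rad3-deleted cells 33 of 63 members were called higher than the array median (52.4%, against 26.4% of all 10420 windows) and 2 lower (3.17%, against 20.2% of all windows), by limma with Benjamini-Hochberg adjustment at 0.05. In cdc25-22 cells 16 members were called higher (25.4%, against 3.34% of all windows) and 0 lower (0.413% of all windows). An unadjusted p under 0.05 by limma was reached there by 35 of the 63 members and by 2068 of the 10420 windows. Both strains called 12 members higher (19.0%, against 2.12% of all windows). Called higher in rad3-deleted cells alone were 21, and in cdc25-22 cells alone 4 (snoZ16, sno16, snR98 and snoU24b). In neither direction in either strain were 24 called. The counts for 1 strain alone and for neither have no share of all windows beside them, so they are no result about the members. The median member had a ratio of 0.25 in rad3-deleted cells and 0.25 in cdc25-22 cells, where the median of all windows was 0.01 in rad3-deleted cells and -0.01 in cdc25-22 cells. Member windows held a median of 32.7% G+C, against 35.3% over all windows. With the G+C trend of each array removed, 19 members were called higher in rad3-deleted cells (30.2%, against 25.2% of all windows) and 20 in cdc25-22 cells (31.7%, against 4.64%). The cdc25-22 count rested on each of its arrays: it was 6 without replicate 1 (9.52%, against 0.653% of all windows), 10 without replicate 2 (15.9%, against 1.04%) and 7 without replicate 3 (11.1%, against 0.662%). Above the array median on all 6 arrays lay 26 members (41.3%, against 9.73% of all windows). The arrays of each strain differed in spread, so the numbers of calls in the 2 strains are not a test of a difference between them.

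**Figure D1:**
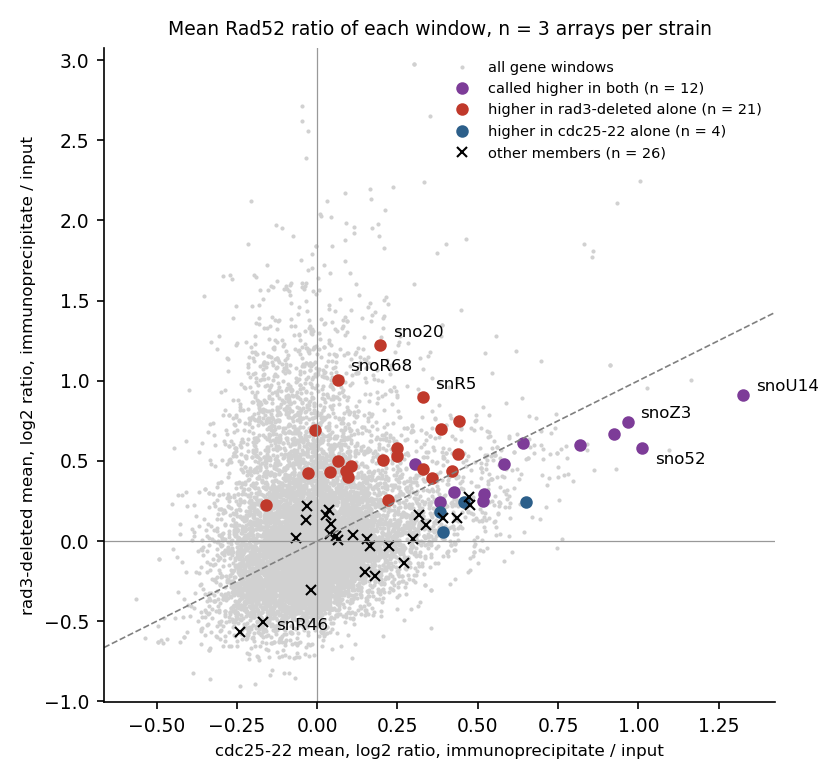
Mean Rad52 ratio (log2, array median at 0) of each gene window in the rad3-deleted strain on the vertical axis and in cdc25-22 on the horizontal axis, 3 arrays per strain; grey points are all gene windows, larger points the snoRNA and snRNA genes by their calls, and the dashed line marks equal means. snoU14 lies farthest right of all windows and below the dashed line, while sno20, snoR68 and snR5 lie above it.

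snoU14, whose relative in budding yeast is needed to process the RNA of the small ribosomal subunit, had the highest ratio of all 10420 windows in cdc25-22. Its window read 1.41, 0.59 and 0.73 on rad3-deleted arrays and 1.39, 1.05 and 1.54 on cdc25-22 arrays. The arrays of the strains overlapped: 1 rad3-deleted array was as high as the cdc25-22 arrays and the other 2 were below them. The mean was 0.91 ± 0.44 in rad3-deleted cells and 1.33 ± 0.25 in cdc25-22 cells (SD, n = 3 each), and both passed limma's test against the array median (adjusted p = 0.000576 in rad3-deleted cells and 0.0026 in cdc25-22 cells), while the difference of -0.42 did not (SE 0.20, adjusted p = 0.158; -0.81 on slide 3). Among all windows in cdc25-22, sno52 ranked 5, snoZ3 7 and snoZ4 10.

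sno52 read 0.82, 0.40 and 0.53 on rad3-deleted arrays and 0.91, 1.26 and 0.87 on cdc25-22 arrays, so every rad3-deleted array lay below every cdc25-22 array. The difference was -0.43 (SE 0.14), and -0.34 on slide 3, and missed the threshold (limma, adjusted p = 0.0543). sno12 read 0.57, 0.63 and 0.64 on rad3-deleted arrays and 0.63, 0.46 and 0.84 on cdc25-22 arrays, which overlapped, with a difference of -0.03 (SE 0.12). snR93 read 0.54, 0.47 and 0.43 on rad3-deleted arrays and 0.54, 0.81 and 0.39 on cdc25-22 arrays, again overlapping. The other members called in both strains were snoZ3, snoZ4 and snoZ5, given with their cluster below, snR33, snR88, snoR61, SPNCRNA.498 and the U4 gene snu4. Of these, SPNCRNA.498, snR88 and snoR61 were named because they complete the 12, and not by the rule for naming genes.

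**Figure D2:**
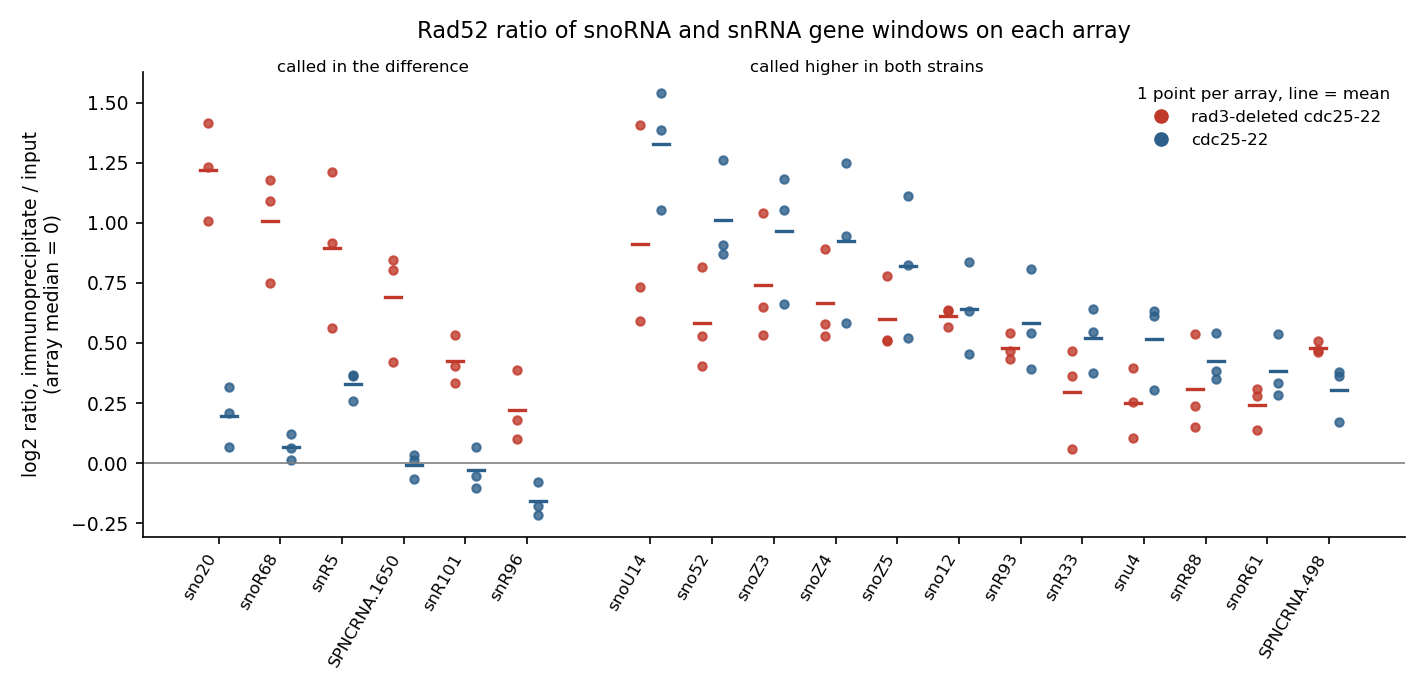
Rad52 ratio (log2, array median at 0) of single windows on each array, 1 point per array with a line at the mean of 3, rad3-deleted left and cdc25-22 right of each gene name. The 6 genes on the left were called in the difference between the strains, and the 12 on the right were called higher than the array median in both strains.

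Windows of snoRNA and snRNA genes were on average higher than the DNA beyond them. The window mean was compared, on each array, with the mean of the probes 1001 to 2000 bp away on both sides. The window stood above these flanks on every array of the strain for 28 of 63 members in rad3-deleted cells (44.4%, against 25.8% of all windows) and for 33 in cdc25-22 cells (52.4%, against 21.6%). Averaged over the members the rise was 0.28, 0.11 and 0.15 on rad3-deleted arrays and 0.30, 0.14 and 0.32 on cdc25-22 arrays, where the mean over protein-coding genes was -0.01 to 0.01 on rad3-deleted arrays and 0.00 to 0.03 on cdc25-22 arrays. At snoU14 the window exceeded its flanks by 0.93 ± 0.49 in rad3-deleted cells and by 1.25 ± 0.28 in cdc25-22 cells (SD, n = 3 each). Among tRNA genes, which are short units of RNA polymerase III, 44.8% stood above their flanks on every rad3-deleted array and 63.8% on every cdc25-22 array, so the local rise was not particular to snoRNA and snRNA genes. Of 25 measured 5S rRNA genes, 15 did so in rad3-deleted cells and 18 in cdc25-22 cells.

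The rise was off centre, with its highest point just behind the 3′ end of the gene. Each probe was assigned to its nearest member and to the side of it on which it lay. Probes 1 to 250 bp downstream averaged 0.44 ± 0.15 on rad3-deleted arrays and 0.54 ± 0.14 on cdc25-22 arrays (SD over 3 arrays, 32 probes), and those 1 to 250 bp upstream 0.23 ± 0.04 on rad3-deleted arrays and 0.19 ± 0.12 on cdc25-22 arrays (42 probes). Inside the genes the mean was 0.36 ± 0.10 in rad3-deleted cells and 0.27 ± 0.16 in cdc25-22 cells (43 probes). Probes 251 to 500 bp downstream still read 0.31 ± 0.17 in rad3-deleted cells and 0.39 ± 0.10 in cdc25-22 cells, while those 251 to 500 bp upstream read 0.08 ± 0.09 in rad3-deleted cells and 0.03 ± 0.07 in cdc25-22 cells. Beyond 1 kb and up to 3 kb, the means of the steps on either side lay between 0.00 and 0.20 in rad3-deleted cells and between -0.04 and 0.09 in cdc25-22 cells.

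**Figure D3:**
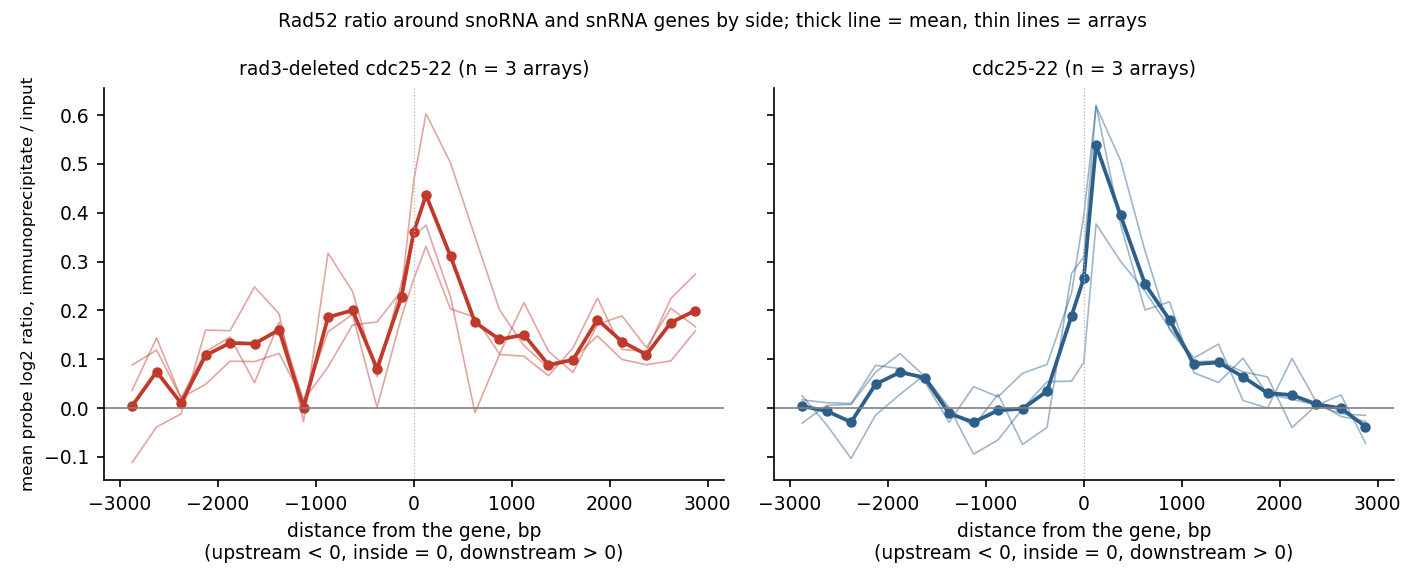
Mean probe log2 ratio by distance from the nearest snoRNA or snRNA gene in steps of 250 bp, upstream to the left, inside at 0 and downstream to the right, for the 3 rad3-deleted arrays (left panel) and the 3 cdc25-22 arrays (right panel); thick lines are means and thin lines are arrays. In both panels the highest mean is the step 1 to 250 bp downstream, 0.44 in rad3-deleted cells and 0.54 in cdc25-22 cells.

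Gene by gene, the mean of the 500 bp downstream minus the mean of the 500 bp upstream was 0.33, 0.17 and 0.16 on rad3-deleted arrays and 0.37, 0.26 and 0.34 on cdc25-22 arrays, over 62 members with probes on both sides. It was above 0 on all 6 arrays. Over protein-coding genes it was 0.09, -0.03 and -0.08 on rad3-deleted arrays and 0.18, 0.18 and 0.125 on cdc25-22 arrays. A smaller lean downstream was thus seen at protein-coding genes in cdc25-22 cells as well. The downstream side was the higher one on every array of the strain for 25 of 62 members in rad3-deleted cells (40.3%, against 25.6% of protein-coding genes) and for 35 in cdc25-22 cells (56.5%, against 35.1% of protein-coding genes); the upstream side was the higher one for 7 in rad3-deleted cells (11.3%, against 23.8%) and 4 in cdc25-22 cells (6.45%, against 10.4%). tRNA genes had no such lean: 17.5% had the higher downstream side on every rad3-deleted array and 20.2% on every cdc25-22 array, against 28.9% and 27.2% with the higher upstream side. The flanks of the members had nearly the same base composition, with 32.0% G+C downstream and 32.2% upstream. No test of this lean over genes was made, because neighbouring members share probes and genes are not replicates.

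Among single members, named here after their values were seen, snR3 had 0.65 downstream and 0.28 upstream in rad3-deleted cells, and 0.92 downstream and -0.12 upstream in cdc25-22 cells. snoR61 had 0.49 downstream and -0.12 upstream in rad3-deleted cells, and 0.82 downstream and -0.06 upstream in cdc25-22 cells. snu32, 1 of 2 genes of the U3 snoRNA that directs early cleavage of ribosomal RNA, had 0.94 downstream and 0.26 upstream in rad3-deleted cells, and 0.82 downstream and -0.04 upstream in cdc25-22 cells. These 3 leaned the same way in both strains. The U6 gene snu6 leaned the other way, with 0.25 downstream and 0.9999 upstream in rad3-deleted cells, and -0.09 downstream and 0.38 upstream in cdc25-22 cells. snR10 did so too, with 0.14 downstream and 1.14 upstream in rad3-deleted cells, and -0.01 downstream and 0.84 upstream in cdc25-22 cells.

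The shape at single probes differed between genes. The highest probe beside snoU14 lay 231 bp downstream and read 1.48, 1.15 and 1.20 on rad3-deleted arrays and 2.03, 1.57 and 2.01 on cdc25-22 arrays. The probe 134 bp upstream averaged 1.06 in rad3-deleted cells and 1.39 in cdc25-22 cells, and the probe 1152 bp upstream was below the median in both strains, at -0.22 in rad3-deleted cells and -0.19 in cdc25-22 cells. At sno12 the highest probe lay 333 bp downstream, with 1.26, 1.30 and 0.74 on rad3-deleted arrays and 1.55, 1.39 and 1.54 on cdc25-22 arrays, while the probe 225 bp upstream averaged 0.30 in rad3-deleted cells and -0.02 in cdc25-22 cells. Beside snR5 the upstream side was the higher one: the probe 183 bp upstream averaged 1.03 in rad3-deleted cells and 0.52 in cdc25-22 cells, and the probe 231 bp downstream 0.43 in rad3-deleted cells and 0.05 in cdc25-22 cells. At snoR68 the probe 398 bp upstream averaged 1.21 in rad3-deleted cells and 0.07 in cdc25-22 cells, and the probe 426 bp downstream 0.81 in rad3-deleted cells and 0.06 in cdc25-22 cells.

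**Figure D4:**
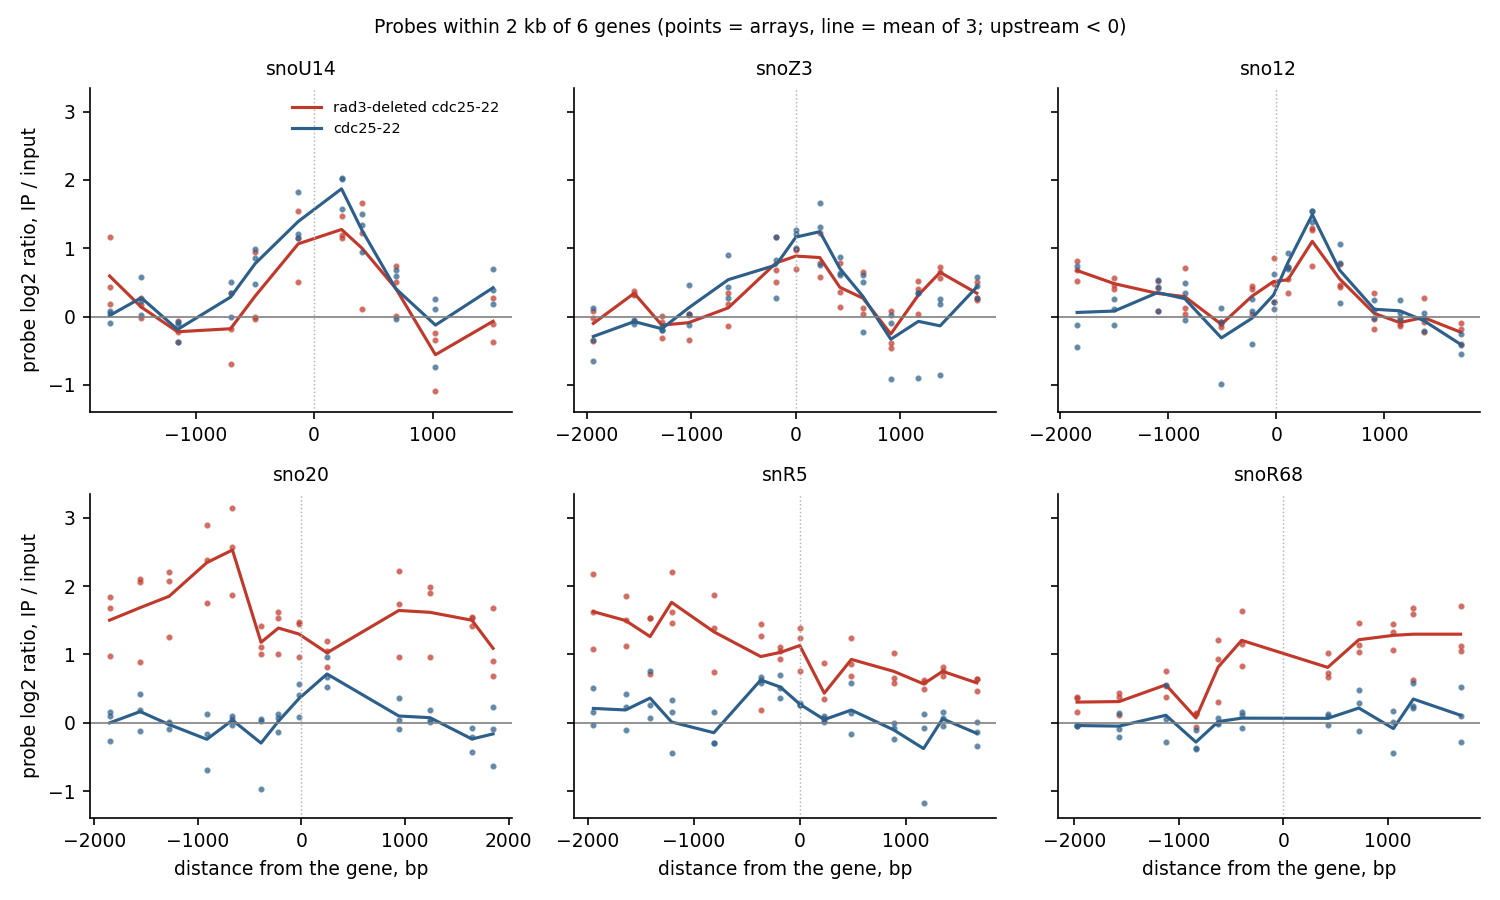
Probe log2 ratios within 2000 bp of 6 genes by distance from the gene (upstream to the left of 0, downstream to the right), with points for arrays and lines for the mean of the 3 rad3-deleted and the 3 cdc25-22 arrays. snoU14, snoZ3 and sno12 (top) show a narrow rise in both strains, and sno20, snR5 and snoR68 (bottom) lie in wide regions whose rad3-deleted line runs above the cdc25-22 line.

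Between the strains, 6 of 63 members were called higher in rad3-deleted cells by limma (9.52%, against 16.7% of the 10415 windows tested) and 0 lower (against 6.35% of windows). Both shares were below those of all windows in this fit. An unadjusted p under 0.05 by limma was reached by 20 of the 63 members and by 3965 of the 10415 windows. With the slide as a replicate block, 10 members were higher (15.9%, against 19.2% of windows) and 6 lower (9.52%, against 9.46%). The split of higher against lower calls depended on the scaling of the arrays: after quantile normalization 5 members were higher (7.94%, against 14.7% of windows) and 12 lower (19.0%, against 8.84%), and with 1 spread for all arrays 5 were higher (7.94%, against 15.8%) and 3 lower (4.76%, against 5.61%). With the G+C trend removed, 5 were higher (7.94%, against 15.2%) and 16 lower (25.4%, against 9.73%). Under the quantile and G+C settings the share of members called lower in rad3-deleted cells was thus above that of all windows. With the scanner files as listed, no window was called in the difference by limma (0 of 10415 windows), with 0 members at an unadjusted p under 0.05. Without rad3-deleted replicate 1, 10 members were called lower (15.9%, against 11.3% of windows), and without cdc25-22 replicate 2, 1 was (1.59%, against 2.92%). Every rad3-deleted array lay above every cdc25-22 array for 9 members (14.3%, against 24.1% of all windows) and below for 7 (11.1%, against 19.5%).

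sno20 had the largest difference. It read 1.01, 1.42 and 1.23 on rad3-deleted arrays and 0.21, 0.32 and 0.07 on cdc25-22 arrays, with no overlap, a difference of 1.02 (SE 0.13, limma adjusted p = 0.000394) and 1.17 on slide 3. snoR68, which rests on 2 probes, read 0.75, 1.09 and 1.18 on rad3-deleted arrays and 0.06, 0.12 and 0.01 on cdc25-22 arrays, a difference of 0.94 (SE 0.13, limma adjusted p = 0.000588) and 1.17 on slide 3. SPNCRNA.1650, the longer record that holds snoR68 and shares its probes, differed by 0.70 (SE 0.13) and by 0.81 on slide 3. snR5, whose relative in budding yeast guides pseudouridine formation in the large-subunit RNA, read 0.92, 0.56 and 1.21 on rad3-deleted arrays and 0.37, 0.36 and 0.26 on cdc25-22 arrays, a difference of 0.57 (SE 0.15, limma adjusted p = 0.0226) and 0.95 on slide 3. The 3 records sno20, snoR68 and SPNCRNA.1650 were called under every alternative that gave them a value, other than the files as listed; snR5 was called in 10 of 18. In the deposited value table, 3 members were called higher in place of 6 (9.42% of windows). That count uses, as cdc25-22 replicate 3, the column that correlated best with the rad3-deleted replicate 3 file.

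The other 2 called members differed less. snR101 read 0.33, 0.40 and 0.53 on rad3-deleted arrays and 0.07, -0.05 and -0.11 on cdc25-22 arrays, a difference of 0.45 (SE 0.11, limma adjusted p = 0.013) and 0.64 on slide 3. snR96 read 0.10, 0.39 and 0.18 on rad3-deleted arrays and -0.22, -0.08 and -0.18 on cdc25-22 arrays, a difference of 0.38 (SE 0.11, limma adjusted p = 0.0334) and 0.36 on slide 3. Neither overlapped between the strains. Leaving out any 1 array other than rad3-deleted replicate 1 ended the call for snR96.

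sno20, snR5 and snoR68 lay within regions of high ratio far wider than the genes. Around sno20 every probe from 1852 bp upstream to 1850 bp downstream averaged at least 1.02 in rad3-deleted cells, and the highest, 666 bp upstream, read 1.87, 2.58 and 3.14 on rad3-deleted arrays against 0.09, 0.06 and -0.04 on cdc25-22 arrays. The sno20 window was at -0.32 ± 0.30 relative to its flanks in rad3-deleted cells and at 0.23 ± 0.16 in cdc25-22 cells (SD, n = 3 each). In cdc25-22 cells the highest probe lay 247 bp downstream, at 0.66, 0.52 and 0.95. The snR5 window was at -0.25 ± 0.31 relative to its flanks in rad3-deleted cells and at 0.29 ± 0.15 in cdc25-22 cells, with the probe 1211 bp upstream at 1.76 in rad3-deleted cells and 0.01 in cdc25-22 cells. snoR68 exceeded its flanks, which averaged 0.84 in rad3-deleted cells and 0.06 in cdc25-22 cells, by 0.17 in rad3-deleted cells and by 0.00 in cdc25-22 cells.

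**Figure D5:**
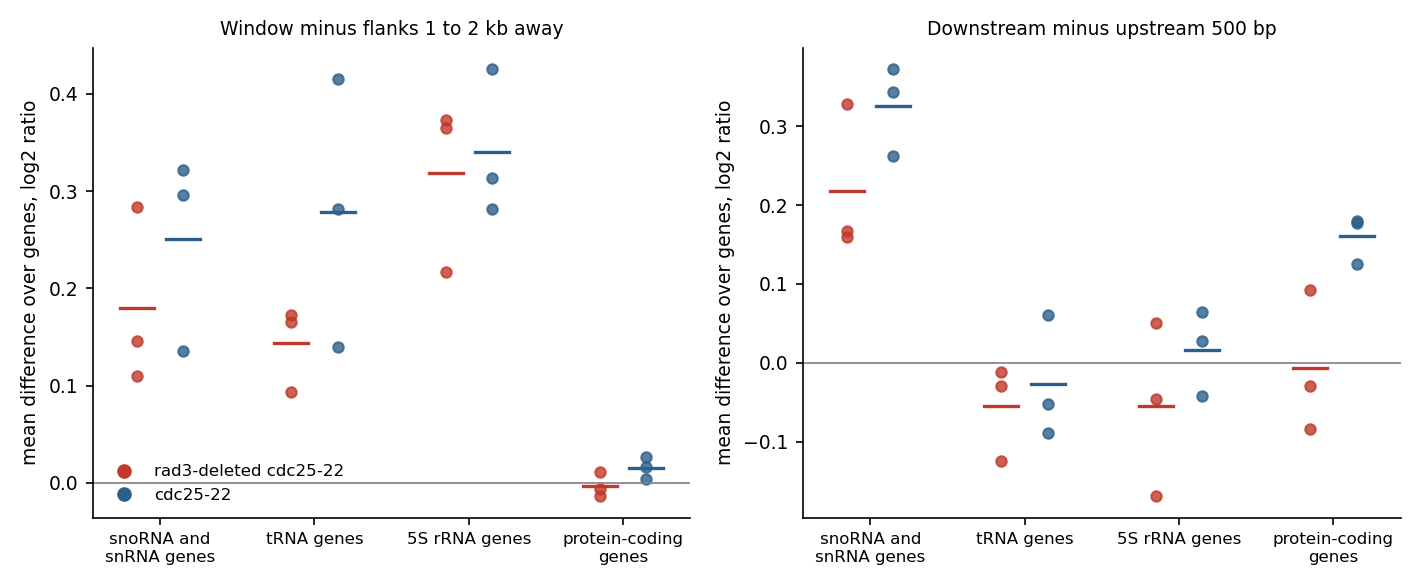
Left, the mean over genes of the window minus the flanks 1001 to 2000 bp away; right, the mean over genes of the downstream minus the upstream 500 bp; both in log2 ratio, with 1 point per array and a line at the mean of 3, rad3-deleted left and cdc25-22 right of each class. snoRNA and snRNA genes, tRNA genes and 5S rRNA genes rise above their flanks on every array. The lean to the downstream side is above 0 on all 6 arrays for snoRNA and snRNA genes but not for tRNA or 5S rRNA genes. For protein-coding genes it is smaller, and above 0 on every cdc25-22 array but not on every rad3-deleted array.

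The start of sno20 shows the promoter elements searched for. In capitals are HomolD, an element of ribosomal protein genes in fission yeast (CAGTCACA, 48 bases before the start on the plus strand), HomolE (an element often found beside HomolD, 66 bases before it on the minus strand, so printed as its complement read backwards) and TATAAA (34 bases before it on the plus strand and 140 on the minus strand). The stretch is II:2410940-2411239 of ASM294v3, plus strand, from 250 bases before to 50 after the start, and none of the matches overlap.
sno20 promoter: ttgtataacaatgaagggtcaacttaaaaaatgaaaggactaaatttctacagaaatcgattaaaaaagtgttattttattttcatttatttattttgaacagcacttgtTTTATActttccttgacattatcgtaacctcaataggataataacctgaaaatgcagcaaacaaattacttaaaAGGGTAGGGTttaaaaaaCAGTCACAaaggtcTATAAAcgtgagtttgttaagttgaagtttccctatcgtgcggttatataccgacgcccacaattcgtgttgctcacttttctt
On both strands of this window, HomolD was found for 12 of 63 members (19.0%, against 1.61% of all 10768 promoters and 2.66% of protein-coding ones), HomolE for 2 (3.17%, against 0.734%) and TATAAA for 31 (49.2%, against 45.3%). A host record and the snoRNA it holds can share a match, as SPNCRNA.7474 and snR46 do; without host records and intronic members HomolD was found for 8 of 46 (17.4%). The 12 members with HomolD had a median ratio of 0.23 in rad3-deleted cells and 0.05 in cdc25-22 cells, and the 51 without it 0.27 in rad3-deleted cells and 0.32 in cdc25-22 cells. A match is a run of letters, not a shown binding site.

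The clustered genes were set against the single ones. With another member within 1000 bp, 21 records counted as clustered and 42 as single, in 50 loci. Clustered minus single means were -0.06, 0.05 and 0.06 on rad3-deleted arrays and -0.09, -0.14 and 0.01 on cdc25-22 arrays, which straddle 0 in both strains. Clustered records averaged 0.31 and single ones 0.29 in rad3-deleted cells, against 0.24 clustered and 0.31 single in cdc25-22 cells. Of the clustered records, 7 are host records, longer records that overlap a shorter snoRNA record in whole or, as SPNCRNA.901 does snR91, in part. Only 8 genes, in 2 loci, lie beside another gene that is no host record. Those 8 exceeded the other 48 by 0.13, 0.19 and 0.17 on rad3-deleted arrays and by 0.08, 0.01 and 0.43 on cdc25-22 arrays.

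The 2 loci with several genes are given one by one. In the locus of 5 genes snoZ8, snoZ7, snoZ5, snoZ4 and snoZ3 (I:526726-527713, plus strand), the ratio was higher with each gene in the direction of transcription. snoZ8, the first, averaged -0.03 in rad3-deleted cells and 0.16 in cdc25-22 cells, snoZ7 0.27 in rad3-deleted cells and 0.47 in cdc25-22 cells, and snoZ5 0.60 in rad3-deleted cells and 0.82 in cdc25-22 cells. snoZ4 read 0.89, 0.53 and 0.58 on rad3-deleted arrays and 0.95, 0.58 and 1.25 on cdc25-22 arrays. snoZ3, the last, read 1.04, 0.53 and 0.65 on rad3-deleted arrays and 1.05, 0.66 and 1.18 on cdc25-22 arrays. Neighbours in this order share probes and overlap in their array values, so single steps were not resolved.

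In the locus of snR41, snR70 and snR51b (I:1200168-1200729, plus strand), all 3 genes and their host record SPNCRNA.723 were called higher than the array median in rad3-deleted cells and none in cdc25-22 cells. Their windows overlap and share probes, so these calls are not independent. snR41 read 0.26, 0.52 and 0.52 on rad3-deleted arrays and 0.05, -0.26 and 0.33 on cdc25-22 arrays. snR70 read 0.26, 0.49 and 0.57 on rad3-deleted arrays and 0.05, -0.11 and 0.33 on cdc25-22 arrays. snR51b read 0.51, 0.40 and 0.60 on rad3-deleted arrays and 0.16, 0.06 and 0.40 on cdc25-22 arrays. The arrays of the strains overlapped for each of the 3 genes, and no difference passed limma's test (adjusted p = 0.0834, 0.0886 and 0.0967), although snR70 did with the slide as a replicate block (adjusted p = 0.0476).

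The spliceosomal snRNA genes had a wide range of ratios. The U2 gene snu2 was highest in rad3-deleted cells, with 1.12, 0.21 and 0.92 on rad3-deleted arrays and 0.46, 0.48 and 0.38 on cdc25-22 arrays; its input averaged -1.88 in rad3-deleted cells and -1.72 in cdc25-22 cells (log2, array median at 0), and 3 of its 4 probes were near background on at least 1 array. The U6 gene snu6 read 0.49, 0.35 and 0.66 on rad3-deleted arrays and 0.30, -0.27 and 0.16 on cdc25-22 arrays, without overlap; the difference of 0.43 (SE 0.15), and 0.49 on slide 3, missed the threshold (limma, adjusted p = 0.0624) but passed it with the slide as a replicate block (adjusted p = 0.022). The U4 gene snu4 read 0.39, 0.25 and 0.10 on rad3-deleted arrays and 0.61, 0.31 and 0.63 on cdc25-22 arrays. snu2, snu6 and snu4 were called higher than the array median in rad3-deleted cells, and snu4 alone of the 6 in cdc25-22 cells.

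The genes of U1 and U5 were near the array median. snu1 averaged 0.02 ± 0.23 in rad3-deleted cells and 0.16 ± 0.31 in cdc25-22 cells, and snu5 0.00 ± 0.09 in rad3-deleted cells and 0.07 ± 0.11 in cdc25-22 cells (SD, n = 3 each). snR48, which RefSeq files under snRNA and which lies in an intron of rps3, averaged 0.03 ± 0.14 in rad3-deleted cells and 0.06 ± 0.17 in cdc25-22 cells. None of these 3 passed the test in either strain. In order of level the means ran snu2, snu6, snu4, snR48, snu1, snu5 in rad3-deleted cells and snu4, snu2, snu1, snu5, snu6, snR48 in cdc25-22 cells, and the last 3 of each order differed by less than their SDs.

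Members in introns had lower mean ratios than members outside protein-coding genes, which was not tested. The 10 members in introns of protein-coding genes averaged 0.28, 0.01 and 0.03 on rad3-deleted arrays and 0.35, 0.15 and 0.23 on cdc25-22 arrays. The 44 outside protein-coding genes averaged 0.43, 0.23 and 0.34 on rad3-deleted arrays and 0.38, 0.17 and 0.38 on cdc25-22 arrays. The 9 that overlap an exon of a gene on the other strand averaged 0.38, 0.38 and 0.26 on rad3-deleted arrays and 0.28, 0.19 and 0.18 on cdc25-22 arrays. By these means the intronic members were below the members outside genes on each of the 6 arrays. By medians they were above them on cdc25-22 replicate 1 (0.37 against 0.36) and replicate 2 (0.21 against 0.10). Their windows are richer in G+C, with a median of 36.2% against 31.7%.

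The lowest members were snR46 and its host record SPNCRNA.7474, the only 2 called lower than the array median in rad3-deleted cells. snR46 read -0.25, -0.46 and -0.80 on rad3-deleted arrays and -0.02, -0.09 and -0.39 on cdc25-22 arrays, which overlapped. They too lay in a wider region, which was lower upstream than downstream. The probe 450 bp upstream averaged -1.27 in rad3-deleted cells and -0.93 in cdc25-22 cells. At the probe 1836 bp upstream the mean was -0.91 in rad3-deleted cells and -0.62 in cdc25-22 cells. The 500 bp downstream of snR46 averaged -0.23 in rad3-deleted cells and 0.03 in cdc25-22 cells. The probe inside snR46 averaged -0.19 in rad3-deleted cells and 0.13 in cdc25-22 cells. With probes inside the gene only, neither record was called lower (limma, adjusted p = 0.429 for each). With the slide as a replicate block, 4 members were called lower in rad3-deleted cells in place of 2 (22.7% of all windows).

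The input channel alone gave a second reading of the same windows. No window differed between the strains in input level (0 of 10415 by limma with Benjamini-Hochberg adjustment at 0.05), where 301 windows and 1 member had an unadjusted p under 0.05. At sno20 the input averaged 1.75 ± 0.44 in rad3-deleted cells and 1.18 ± 0.32 in cdc25-22 cells (SD, n = 3 each).

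The genes of proteins that act with these RNAs were measured in the same way. Of 30 genes listed, 24 were measured; cbf5, nhp2, smd1, smd2, lsm6 and imp3 were not measured here. In rad3-deleted cells 5 of the 24 were called higher than the array median (20.8%, against 26.4% of all windows) and 5 lower (20.8%, against 20.2%). These shares were close to or below those of all windows. In cdc25-22 cells 0 were called in either direction by limma. An unadjusted p under 0.05 was reached there by 3 of the 24 and by 2068 of the 10420 windows. Medians were 0.01 in rad3-deleted cells and 0.01 in cdc25-22 cells, near those of all windows. In the difference between the strains, 3 of the 24 were higher in rad3-deleted cells (12.5%, against 16.7% of windows). Lower were 2 (8.33%, against 6.35%). Both shares were near those of all windows, so the single genes below are no result about the list. snu13, a protein of both box C/D particles and the U4 particle, read 1.15, 1.14 and 1.84 on rad3-deleted arrays and 0.29, 0.27 and -0.06 on cdc25-22 arrays, a difference of 1.21 (SE 0.19, limma adjusted p = 0.00124). lsm8, of the ring that binds U6, read 0.32, 1.01 and 1.28 on rad3-deleted arrays and -0.19, -0.12 and 0.05 on cdc25-22 arrays, a difference of 0.95 (SE 0.21). mpp10, of the U3 particle, was higher in rad3-deleted cells by 0.55 (SE 0.12). lsm3, of the same ring as lsm8, had a difference of -0.70 (SE 0.13) and smb1, of the ring on the other spliceosomal RNAs, one of -0.66 (SE 0.19), both lower in rad3-deleted cells.

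The other genes of the list that passed the test in rad3-deleted cells were nop56, of the box C/D core, at 0.22 and nop10, of the box H/ACA core, at 0.25, both higher than the array median. gar1, also of the H/ACA core, was lower at -0.20, the Sm protein gene smd3 at -0.22 and the Lsm protein gene lsm7 at -0.40. None of these 5 passed limma's test of the difference between the strains, although lsm7, with a difference of -0.43, did with the slide as a replicate block (adjusted p = 0.0353, against 0.0536 without it). fib1, the methyltransferase of box C/D particles, averaged 0.02 in rad3-deleted cells and 0.18 in cdc25-22 cells and passed in neither.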

How the data were processed

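Rad52 immunoprecipitates were hybridised with input DNA on 6 two-colour Agilent arrays, 3 per strain. The authors' scanner files come from Feature Extraction 10.7.3.1, per the submitters' processing notes. They give each spot's processed intensity, from which the scanner software had removed background and dye bias, per the file headers, and a log10 ratio of red over green, per the file headers. The deposited value table gives a linear ratio per probe; how the authors made it is not given in the sources used here. Array positions are those of a 2002 genome, per the file headers; by the base composition of the probes they coincided within 2 bp with RefSeq ASM294v3 in 213 of 214 segments used.

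From the processed signals, log2 green over red was computed here, without control and outlier-flagged spots, and set to a median of 0 on each array. Windows held at least 2 probes. limma 3.58.1 (R 4.3.3) fitted a mean per strain over all windows, with Benjamini-Hochberg adjustment; the difference leaves out 5 windows near rad3. The fit was tested on simulated data. Same-numbered arrays share a slide, and their deviations from the strain means correlated at 0.305, 0.206 and 0.189, so the numbers pair the arrays. Alternatives changed the placement, background, scaling, window, probe minimum, dim probes, G+C trend, slide block and single arrays. Genes named were all snRNA genes, snoU14 and snoZ3 to snoZ7, the 10 highest and 5 lowest members of each strain, the 6 largest and 6 smallest differences, loci of 3 or more genes, and genes of the protein list that passed a test. Members and lists were chosen with earlier results of these data known; the comparisons with flanks and between sides were chosen after seeing the data. The number of arrays limits the precision.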

Additional observations from a re-analysis of the deposited data

Results flagged for a closer look

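The windows of 6 members differed between the strains by limma with Benjamini-Hochberg adjustment. The differences, rad3-deleted minus cdc25-22 on the log2 scale, were 1.02 for sno20, 0.94 for snoR68, 0.70 for SPNCRNA.1650, 0.57 for snR5, 0.45 for snR101 and 0.38 for snR96. SPNCRNA.1650 holds snoR68, so these are not independent loci. With 3 arrays per strain, no array was tested for standing apart from the others.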

How the results depend on the processing

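With the scanner files as listed, 0 members and 0 of all windows were called higher or lower in either strain or in the difference. The difference turned to -0.244 for sno20, -0.162 for snoR68, -0.156 for SPNCRNA.1650, -0.143 for snR96 and -0.027 for snR101. In rad3-deleted cells the 33 higher members (against 26.4% of all windows) became 19 with the G+C trend removed (against 25.2%). They became 15 with probes inside genes only, 17 at 0.5 log2 or more and 26 to 34 with 1 array left out. The 2 lower members (against 20.2%) became 0 inside genes only and 6 with the G+C trend removed (against 23%). With the slide as a replicate block they became 4 (against 22.7%). In cdc25-22 cells the 16 higher members (against 3.34% of all windows) became 10 in the value table (against 1.21%). They became 32 after quantile normalization (against 9.53%) and 29 with 1 spread (against 7.98%), so calls over all windows rose there too. They became 4 after normexp, 3 inside genes only, 10 at 0.5 log2 or more and 6 to 23 with 1 array left out. In the difference the 6 higher members (against 16.7% of windows) became 3 in the value table (against 9.42%) and 10 with the replicate block (against 19.2%). They became 12 with probes within 1000 bp, 3 inside genes only and 4 to 8 with 1 array left out. The 0 lower members (against 6.35% of windows) became 12 after quantile normalization (against 8.84%) and 16 with the G+C trend removed (against 9.73%). They became 6 with the block (against 9.46%), 3 with 1 spread (against 5.61%) and 1 without dim probes (against 6.36%). They became 2 within 250 bp, 4 within 1000 bp and 0 to 10 with 1 array left out. Where no share of all windows stands beside a count, the count alone is no result about the members. Clustered minus single was 0.015 in rad3-deleted cells, but -0.058 as listed, -0.213 with the G+C trend removed and 0.165 without host records; in cdc25-22 cells it was -0.074, but 0.173 without host records and -0.209 without the snoZ locus, both chosen after seeing the data. Inside genes only, fewer members had enough probes; the cause of the other changes was not tested. The mean 1 to 250 bp from the genes and the lean to the downstream side moved by less than 1 SD under the listed placement. Over the named genes and the alternatives other than that placement, no value changed sign among those called. Lost were 4 calls in rad3-deleted cells, 21 in cdc25-22 cells and 18 in the difference. Gained were 26 calls in the difference and 0 in either strain. The gained calls were lower in rad3-deleted cells at sno52, snR94, snoZ16, snoR39b, SPNCRNA.1709 and snoU14, and higher at snu6.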
